A study of Danio rerio with 6 samples.

Results

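The genes described here encode the proteins of the cytosolic ribosome, and they were taken from the deposited table of a zebrafish (Danio rerio) knockout study by gene symbol. The rule kept symbols that begin with rpl or rps followed by a digit, and rpsa, rplp0, rplp1, rplp2 and rplp2l, and left out the rps6k kinases and symbols with a colon. It found 83 of 31624 genes, 48 with a large subunit symbol (rpl) and 35 with a small subunit symbol (rps). The symbol rpl37 occurs at 2 loci, on chromosomes 2 and 21. One match, rps19bp1, encodes a protein that binds Rps19 and is not itself a part of the ribosome. It was kept because the rule took it.

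RNA came from whole embryos at 72 hours post fertilization, raised in E3 medium, with 3 samples of wild type fish and 3 of fish mutant for rhpn2. The samples of a group carry the letters a, b and c, and values per sample follow that order throughout. The mutants carry a knockout of rhpn2, which encodes rhophilin-2. Strain, allele and the number of embryos per sample are not stated in the labels. Nothing says that the samples came from separate clutches, so the spread that the p-values measure may be technical.

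The ribosome is built from a small subunit, which reads the mRNA, and a large subunit, which joins amino acids and releases the growing chain through a tunnel. Each subunit needs about equal amounts of most of its proteins. In vertebrates the mRNAs of these proteins share a pyrimidine tract at their start and are translated together in response to growth signals. Ribosomal proteins are among the most abundant transcripts of a growing embryo.

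Libraries held 14918069 to 17056923 counts. Of 27 organ markers looked for, 25 were found, and all of these reached 1 FPKM in every library. In mutants rhpn2 itself was at 23.0% of wild type (95% interval 19.7% to 26.9%, log2 change -2.12, edgeR adjusted p 5.04e-08), with 685, 755 and 743 counts in wild type and 195, 194 and 188 in mutants. Over all 20032 genes tested, 16.7% were lower and 16.5% higher in mutants at an adjusted p below 0.05, together 33.2%.

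Most ribosomal protein genes were highly expressed and close to each other in change. FPKM, which divides counts by exonic gene length and by the library total, allows levels to be set beside each other between genes. The mean wild type level was at least 188.7 FPKM in 79 of the 83 genes. Highest in the large subunit was rpl26, a protein at the tunnel exit, whose wild type level of 2325 ± 222 FPKM (SD, n = 3) stood beside 2292 ± 237 FPKM in the mutants. In the small subunit the highest was rps12, a protein of the beak of the head, with 2249 ± 272 FPKM in wild type and 2396 ± 475 in mutants. The 4 genes below 100 FPKM were rpl7l1, rps19bp1, the rpl37 copy on chromosome 2 (6.59 ± 1.35 FPKM in wild type) and rps8b (3.70 ± 0.597 FPKM). The exonic lengths in the table run from 346 to 3569 bases, so a gene given a long model has a lower FPKM for the same count.

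The median change of each subunit was similar, small and below 0 (about 0 with quantile normalization), and few single genes passed the test. Of 48 large subunit genes 7 were lower and 0 higher in mutants at an adjusted p below 0.05 in edgeR's quasi-likelihood test, with a median log2 change of -0.22. Of 35 small subunit genes 2 were lower and 0 higher, with a median log2 change of -0.21. These are 14.6% and 5.71% of the subunits' genes, against 16.7% lower among all genes tested. In this fit the share of single genes that fell at an adjusted p below 0.05 is thus not above the background. At an unadjusted p below 0.05 there were 13 large and 8 small subunit genes, all lower, beside 43.9% of all genes tested in either direction. In DESeq2 the adjusted counts were 11 and 2 lower with 0 higher, beside 15.5% lower and 14.8% higher among all genes. There the large subunit share of falls was above the background and that of the small subunit below it. The median of all genes tested was 0.01. Expressed as a level, the median gene of the large subunit stood at 85.6% of wild type and that of the small subunit at 86.3%. In bulk RNA from whole embryos, fewer cells with many ribosomes and less ribosomal protein mRNA per cell cannot be told apart.

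The changes were narrowly spread and had mostly 1 sign. The log2 change was below 0 in 47 of 48 large and 34 of 35 small subunit genes, whereas 49.4% of all genes tested were below 0, but with quantile normalization only 20 large and 12 small subunit genes were below 0. These signs are not independent of each other, because nearly all of the genes followed the same order of samples. The interquartile range of the log2 changes was -0.27 to -0.18 in the large subunit and -0.25 to -0.17 in the small subunit, while that of all genes was -0.29 to 0.30. Within 0.2 log2 units of their subunit's median were 44 large and 32 small subunit genes, and 35.6% of all genes lay that close to the overall median. The median level was 856 FPKM in the large and 928 FPKM in the small subunit, but 5.30 FPKM over all genes tested. Spread was not compared with genes of like level. The large subunit median was below that of the small subunit by 0.01 log2 units. That difference was not tested. The standard error of a single gene, with a median of 0.12 in each subunit, does not measure it.

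**Figure D1:**
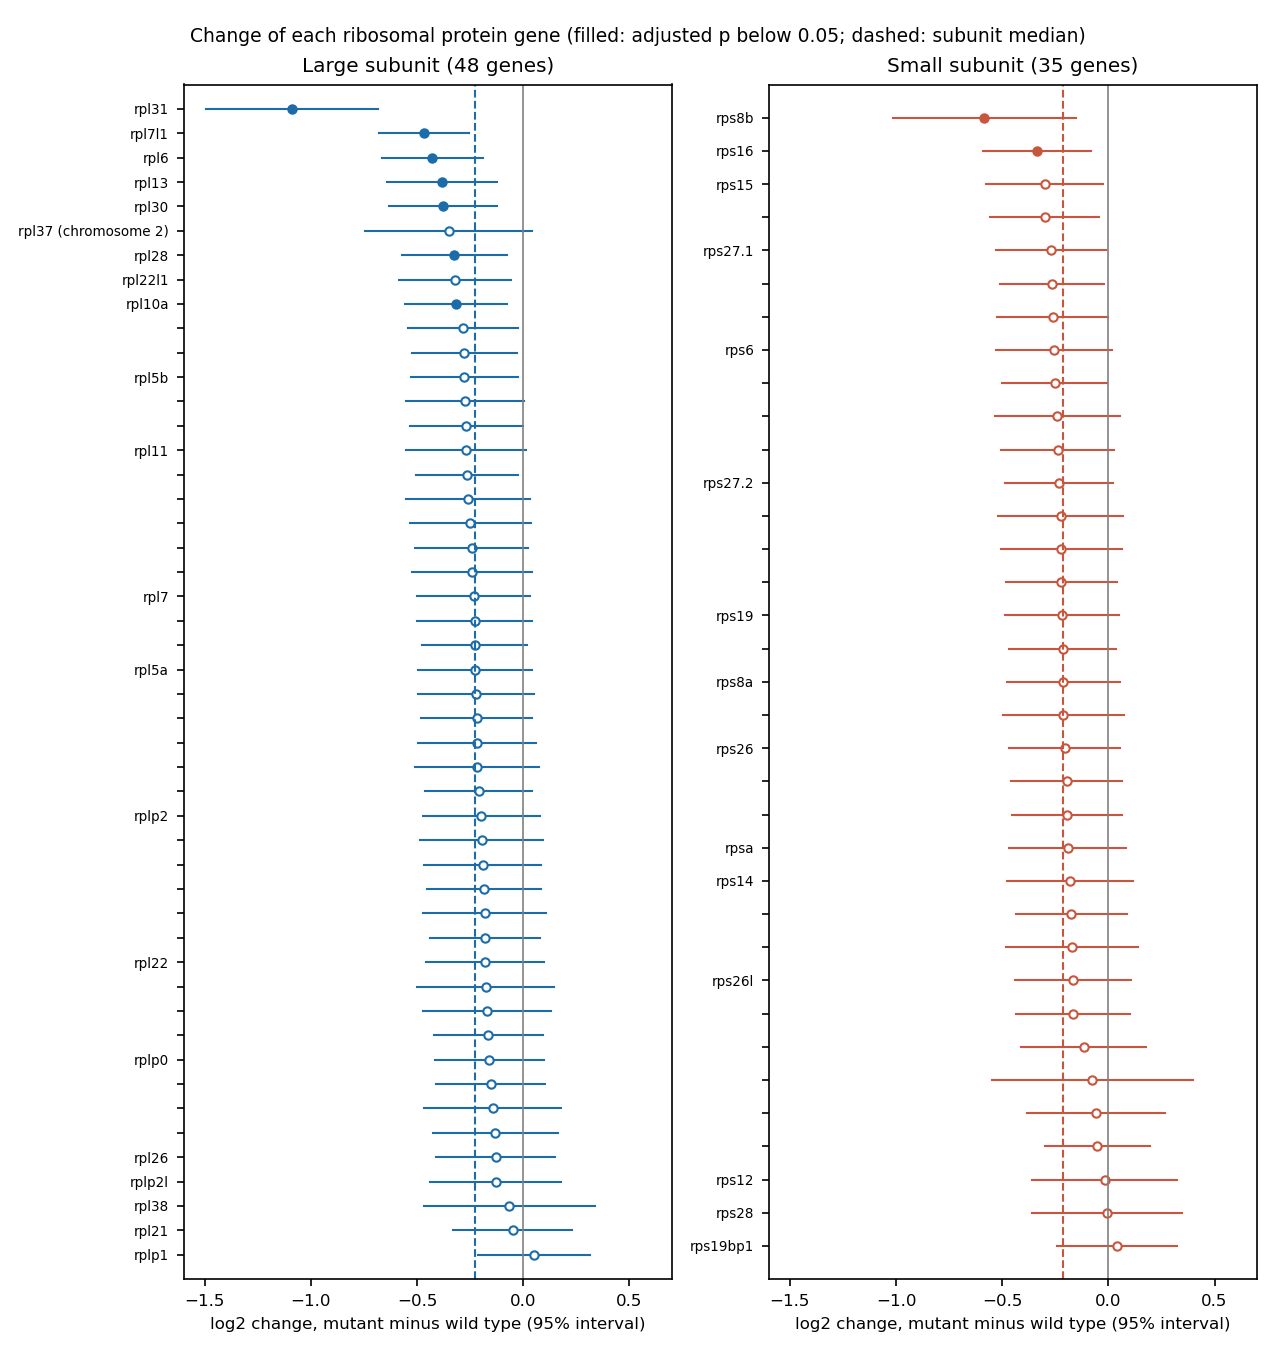
Each row is 1 gene, the point is its log2 change (mutant minus wild type, TMM scaling) and the line its 95% interval from edgeR; filled points passed at an adjusted p below 0.05, and the dashed line is the subunit median. Gene names are given for part of the rows. Points below 0 make up 47 of 48 large and 34 of 35 small subunit genes on this scale (20 and 12 with quantile normalization), and most intervals cross 0.

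**Figure D2:**
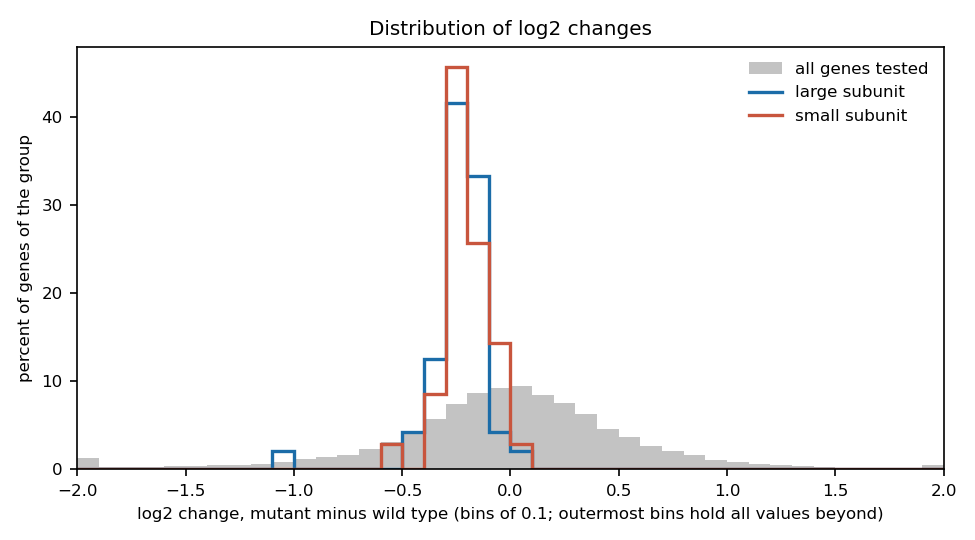
The x axis is the log2 change (mutant minus wild type, TMM scaling) in bins of 0.1, and the y axis the percent of genes of each group: all 20032 genes tested (grey), large subunit (blue) and small subunit (red). The outlines of both subunits are narrow and centred near -0.2 (near 0 with quantile normalization), inside the broad distribution of all genes.

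The shares of the libraries spread more within a group than between the group means. Large subunit genes took 5.52%, 4.88% and 4.57% of the counts in wild type and 4.29%, 4.49% and 4.98% in mutants. Small subunit genes took 3.73%, 3.30% and 3.07% in wild type and 2.91%, 3.07% and 3.48% in mutants. The groups overlapped in each case, because mutant c exceeded wild type b and c. Together the genes held 8.36% ± 0.816 of wild type and 7.74% ± 0.652 of mutant counts (SD, n = 3 each), a difference smaller than the SD of either group.

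Nearly all of the genes followed 1 order of samples. On the CPM scale, where counts are brought to a common library size by TMM, 81 of 83 were highest within wild type in sample a and 80 were lowest in c. Within the mutants, 80 were highest in sample c and 81 lowest in a. The median large subunit gene deviated from its wild type mean by 0.22, -0.06 and -0.18 log2 units in wild type and by -0.37, -0.25 and -0.07 in mutants. For the small subunit the values were 0.21, -0.06 and -0.18 in wild type and -0.36, -0.24 and -0.06 in mutants. Mutant c therefore lay inside the wild type range, while mutants a and b lay below it. The 50 most abundant genes, 6 of them ribosomal protein genes, took 21.9% to 23.6% of counts in wild type and 19.3% to 20.7% in mutants, with the highest value also in wild type a. The part of library composition in the order of samples was not tested.

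**Figure D3:**
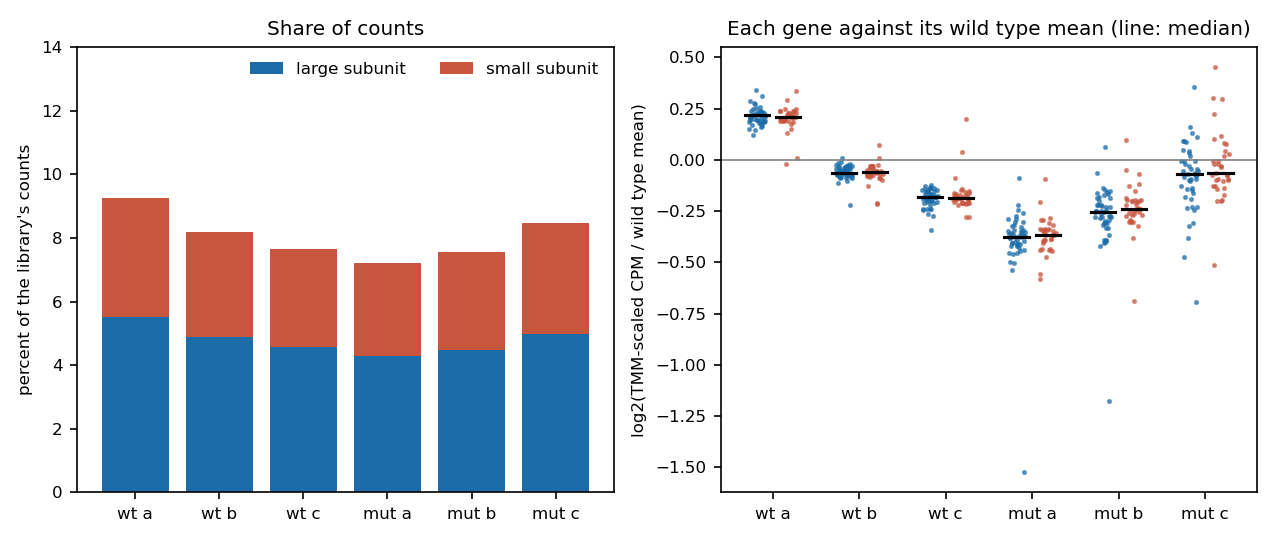
Left, the percent of each library's counts in large (blue) and small (red) subunit genes; right, each gene's TMM-scaled CPM as a log2 ratio to its wild type mean, with the median of each subunit as a black line. Both subunits step together from sample to sample, and the medians of mutant c (-0.07 and -0.06) lie between those of the wild type samples.

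Leaving out single libraries changed these summaries. Without wild type a the medians were -0.12 in the large and -0.11 in the small subunit, and without mutant a they were -0.16 and -0.14. In the other direction, they were -0.32 and -0.31 without wild type c and -0.31 and -0.30 without mutant c. The large subunit count of 7 became 3 without mutant a or mutant b, 4 without wild type b and 10 without wild type c. The small subunit count of 2 became 0 without wild type a, mutant a or mutant b and 1 without wild type b or mutant c. Calls among all genes moved as well. The share lower, 16.7% with all libraries, was 12.8%, 12.4% and 12.8% without mutant a, b and c. It was 16.9%, 13.8% and 14.8% without wild type a, b and c. With wild type a and mutant c both left out, a setting chosen after the values were seen, 8 large and 2 small subunit genes were lower and the medians were -0.18 and -0.19. Of all genes, 14.7% were lower in that setting. Scaling by library totals moved the median of all genes to 0.11 and those of the subunits to -0.12 and -0.10, and relative to all genes the shift stayed at -0.23 and -0.22. Quantile normalization with limma gave medians of 0.01 and 0.04, beside 0.02 for all genes.

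The balance of the subunits hardly moved. The ratio of large to small subunit counts was 1.481, 1.477 and 1.491 in wild type and 1.475, 1.462 and 1.433 in mutants. All 3 mutant ratios lay below the wild type ratios, mutant a by very little, and mutant c stood furthest from the rest. No test was run on this ratio, since it is a score over the whole list.

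The largest change among the 83 genes was that of rpl31, which encodes a protein at the exit of the peptide tunnel. Its CPM was 1472, 1035 and 1109 in wild type and 419.5, 533.7 and 745.0 in mutants. Every mutant sample was well below every wild type sample, and the mutants differed among themselves. Mutants thus held 46.9% of the wild type level, with a 95% interval of 35.5% to 62.2% (log2 change -1.09, SE 0.19, edgeR adjusted p 0.000835). The gene (ENSDARG00000053365) is placed on the minus strand of chromosome 9 from 56637734 to 56644520 in the deposited table, which names no genome build, and overlaps no other gene of the table. Its fall passed in all 18 alternatives run, with log2 changes of -1.34 to -0.84.

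No other protein at the tunnel exit moved to that extent. The log2 changes of rpl17, rpl19, rpl23a, rpl26, rpl35 and rpl39 were -0.19, -0.28, -0.23, -0.13, -0.26 and -0.13, and none passed. For rpl19 the interval ran from -0.54 to -0.02 and for rpl26 from -0.41 to 0.15.

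Smaller falls were measured in rpl7l1 and rpl6. The gene rpl7l1 encodes a relative of the large subunit protein L7 and of a yeast assembly factor. It had 61.5, 57.0 and 51.2 CPM in wild type and 38.9, 43.1 and 40.7 in mutants. The groups were apart, and mutants held 72.3% of the wild type level (62.4% to 83.9%), with an edgeR adjusted p of 0.00328 that stayed below the threshold in all 18 alternatives. It lies within the span of ephx1 on the other strand, a gene with a log2 change of -1.11. The labels do not state that counting used strand, and whether the pair shares reads was not tested. Counts of ephx1 were 164, 170 and 173 in wild type and 119, 90 and 63 in mutants. Those of rpl7l1 were 861, 828 and 777 in wild type and 708, 728 and 620 in mutants. The mutant CPM of rpl6, a large subunit surface protein, was 962.4, 1027 and 1046, against 1529, 1312 and 1243 in wild type. Here too the groups did not overlap, the level was 74.3% of wild type (63.0% to 87.6%) and the edgeR adjusted p 0.00992. In limma on quantile-normalized FPKM values the adjusted p of rpl6 was 0.0763.

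Of the other large subunit genes, rpl13, rpl30, rpl28 and rpl10a passed with smaller differences. In rpl13, a protein of the large subunit surface, the CPM was 1546, 1259 and 1168 in wild type and 963.2, 1009 and 1072 in mutants, a log2 change of -0.38 (SE 0.12, edgeR adjusted p 0.0262). For rpl30, whose yeast homologue also binds its own transcript, 827.1, 684.8 and 637.7 CPM in wild type stood against 504.9, 543.9 and 604.5 in mutants, a log2 change of -0.38 (SE 0.12, edgeR adjusted p 0.0258). The groups did not overlap in either gene, but for rpl30 mutant c came close to wild type c. For rpl13 the adjusted p was 0.0893 without mutant a, 0.0878 without mutant b and 0.052 without wild type b, and for rpl30 it was 0.102 without mutant a and 0.0887 without mutant b. The CPM of rpl28 was 1030, 872.6 and 793.9 in wild type and 672.7, 714.7 and 765.6 in mutants. That of rpl10a, of the side arm through which used tRNA leaves, was 1298, 1114 and 1038 against 882.2, 912.7 and 978.4. In both genes the groups were apart, with mutant c nearest to wild type c. The log2 changes of rpl28 and rpl10a were both -0.32, with edgeR adjusted p values of 0.0447 and 0.0442. Either call was lost without any single library other than wild type c (adjusted p 0.0622 to 0.144 for rpl28 and 0.0648 to 0.134 for rpl10a), and with library totals (0.0904 and 0.0863).

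In the small subunit, rps16 and rps8b passed. The CPM of rps16, whose tail reaches the decoding site, was 788.2, 638.7 and 607.3 in wild type and 499.8, 521.0 and 589.8 in mutants, a log2 change of -0.34 (SE 0.12, edgeR adjusted p 0.0431). Mutant c came close to wild type c, and the call was lost when sample a or b of either group was left out (adjusted p 0.0657 to 0.143) or with library totals (0.0909). The copy rps8b had 4.71, 4.13 and 5.47 CPM in wild type and 3.25, 2.96 and 3.35 in mutants, with a log2 change of -0.58 (SE 0.20, edgeR adjusted p 0.0388). Its values rest on few reads, part of which its abundant copy rps8a may share, and the call held without wild type b but was lost without any other single library (0.0532 to 0.132) and in DESeq2 (0.0738).

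All 9 genes that passed had every mutant sample below every wild type sample. Counting every gene, 11 of the large and 4 of the small subunit were separated this way, together 18.1% of the 83, beside 23.7% of all genes tested.

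**Figure D4:**
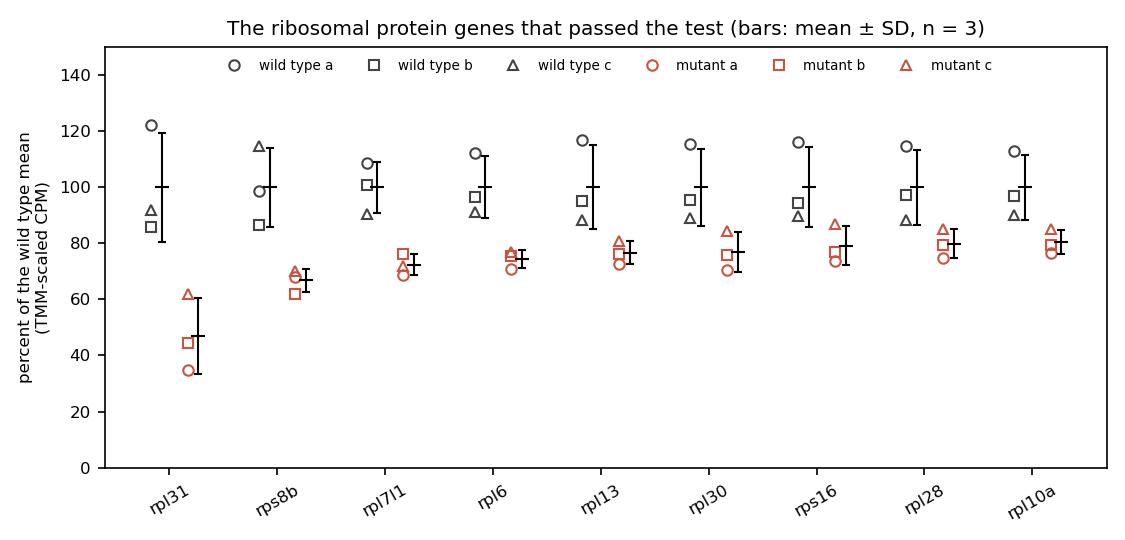
CPM after TMM scaling of the 9 genes that passed, as a percent of the wild type mean, per sample (grey, wild type; red, mutant; symbols give the sample letter), with mean ± SD of the 3 samples in black. The mutant points of rpl31 lie furthest from wild type and spread most. In rpl13, rpl30, rpl28, rpl10a and rps16 the groups are apart by little, and in rpl7l1, rpl6 and rps8b by more.

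The stalk, which recruits elongation factors to the large subunit, showed no change that passed. In rplp0, the stalk base, CPM was 3031, 2625 and 2428 in wild type and 2254, 2429 and 2553 in mutants, and the groups overlapped (log2 change -0.16, 95% interval -0.42 to 0.10, edgeR adjusted p 0.325). The acidic stalk proteins rplp2 and rplp2l had log2 changes of -0.20 and -0.13, and rpl12, which holds the stalk base, -0.17. Unlike the others, rplp1 was not below 0. It had 1436, 1182 and 1107 CPM in wild type and 1167, 1299 and 1390 in mutants, a log2 change of 0.05 (95% interval -0.21 to 0.31, edgeR adjusted p 0.783). With quantile normalization the change of rplp1 was 0.35 and passed with limma (adjusted p 0.00079).

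Genes of the particle that carries the small 5S ribosomal RNA into the large subunit stayed near the subunit median. Besides their structural role, free Rpl5 and Rpl11 are known in mammals to bind Mdm2, the inhibitor of p53. CPM of rpl11 was 980.9, 817.0 and 731.7 in wild type and 615.9, 680.8 and 804.0 in mutants, with overlapping groups (log2 change -0.27, 95% interval -0.55 to 0.01, edgeR adjusted p 0.133). The copies rpl5a and rpl5b had log2 changes of -0.23 and -0.28 and edgeR adjusted p values of 0.177 and 0.0831. In DESeq2 rpl5b passed (adjusted p 0.0463). Around the peptidyl transferase centre, where peptide bonds form, rpl3, rpl4, rpl8 and rpl10 had log2 changes of -0.28, -0.16, -0.22 and -0.22, and none passed.

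Small subunit proteins with known roles in growth signalling or blood formation did not pass. The CPM of rps6, the target of S6 kinase, was 2180, 1873 and 1689 in wild type and 1460, 1553 and 1795 in mutants. Mutant c lay between wild type b and c, and the log2 change was -0.26 (95% interval -0.53 to 0.02, edgeR adjusted p 0.136). In rps19, mutated in human Diamond-Blackfan anaemia, the values were 872.2, 911.2 and 813.3 CPM in wild type and 623.2, 734.2 and 876.0 in mutants. The log2 change was -0.22 (95% interval -0.49 to 0.05, edgeR adjusted p 0.197), and rps19 was among the few genes not highest in wild type a. Without wild type a and mutant c together it passed (adjusted p 0.0252). For rps14, lost in a human myelodysplastic syndrome, the log2 change was -0.18 (-0.48 to 0.11), and for rpsa, at the back of the small subunit, -0.19 (-0.47 to 0.08).

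No small subunit gene grouped at the mRNA entry or exit passed. Entry site genes rps2, rps3 and rps9 had log2 changes of -0.24, -0.26 and -0.30, with adjusted p values of 0.193, 0.113 and 0.068 in edgeR. On the exit side none of rpsa, rps3a, rps14, rps26, rps26l and rps28 passed, and their log2 changes ran from -0.22 to -0.01. The head protein gene rps15 reached -0.30 (edgeR adjusted p 0.0856), and it passed without wild type c (edgeR adjusted p 0.0372).

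In a few genes mutant c exceeded every wild type sample. In rps29, a protein of the small subunit head, the CPM was 148.8, 107.8 and 97.1 in wild type and 78.7, 95.9 and 161.3 in mutants. Mutants a and b were below every wild type sample and mutant c above all of them. The same held for rps28 (535.2, 414.3 and 360.0 in wild type, 350.0, 416.3 and 537.1 in mutants) only in part, since mutant b lay within the wild type range. In rpl38, needed in mice for axial patterning, and in rps12 mutant c was again the highest of all, and these 4 were the only genes for which it did. Set against the mean of mutants a and b, mutant c was higher by 0.89 log2 units in rps29, 0.69 in rpl38, 0.51 in rps12 and 0.49 in rps28, while the median over the 83 genes was 0.22 and that over all genes tested -0.01. Within wild type, sample a exceeded the mean of b and c by 0.54, 0.50, 0.37 and 0.47 log2 units in the same order of genes. The median of that excess over the 83 genes was 0.33. Between groups the log2 changes of rps29, rpl38, rps12 and rps28 were -0.08, -0.07, -0.02 and -0.01, with 95% intervals as wide as -0.55 to 0.40 for rps29. For rpl21, at -0.05, the interval ran from -0.33 to 0.23, and for rps19bp1, at 0.04, from -0.24 to 0.32.

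The 7 pairs of copies with different symbols differed little in change in 4 cases and more in 3. The loci that share the symbol rpl37 are not among these pairs. The pair rpl5a and rpl5b had nearly equal levels, 1018 and 1012 FPKM in wild type, and log2 changes that differed by 0.05. Between rps27.1 and rps27.2 the log2 changes differed by 0.04, between rps26 and rps26l by 0.04 and between rplp2 and rplp2l by 0.07. These differences, that of rpl5a and rpl5b included, are below the SE of either gene, although that SE does not measure a difference between copies. The less abundant copy had the more negative log2 change in 6 of 7 pairs, counting rpl5b as the less abundant of its nearly equal pair. The gap was largest in rpl7l1 (-0.47) beside rpl7 (-0.23), rpl22l1 (-0.32) beside rpl22 (-0.18) and rps8b (-0.58) beside rps8a (-0.21). The fall of rpl22l1 did not pass (edgeR adjusted p 0.0598), but it passed in 5 of 18 alternatives, among them DESeq2 (adjusted p 0.0473). The wild type level of rpl7 was 55.4 times that of rpl7l1 and that of rps8a 191.9 times that of rps8b. The differences within pairs were not tested, and reads of near-identical copies may be split between them.

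The genes lie on 24 chromosomes. On chromosome 7, which holds rhpn2, there are 7, the nearest being rps13 at 11.3 Mb, so none lies within 10 Mb of the mutated gene. Of the 7 only rpl13, at 29.1 Mb, passed. Of the 83 genes, 25 overlap small nucleolar or Cajal body RNAs in the table and 10 overlap a gene on the other strand.

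Genes that build ribosomes or work with them were drawn from 7 lists of related genes, 184 genes in all, of which 183 were tested. Of the 183, 54 were lower and 8 higher, 29.5% and 4.37%, beside 16.7% and 16.5% among all genes tested, with a median log2 change of -0.19. With library totals 35 were lower and 15 higher, beside 11.9% and 22.1% of all genes. The falls numbered 35 without mutant a, beside 12.8% of all genes. Rises numbered 5 without mutant a, 4 without wild type b or mutant c, 3 without wild type c and 2 without mutant b. In these settings 11.7% to 13.6% of all genes were higher. Of the ribosomal protein genes outside the symbol rule, faua, faub and gnb2l1, the homologue of RACK1, had log2 changes of -0.18, 0.22 and -0.15. None of these passed (edgeR adjusted p 0.252, 0.381 and 0.394).

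Factors that assemble the large subunit had the highest share of falls among these lists. Of 44 genes 21 were lower (47.7%) and 2 higher (4.55%), with a median log2 change of -0.30. Among all genes tested 16.7% were lower and 16.5% higher. The GTPase gene gtpbp4 fell 1.64-fold, znf593 fell 1.98-fold and the helicase gene ddx51 fell 1.80-fold (edgeR adjusted p 9.14e-05, 0.000171 and 0.000446), and each passed in all 18 alternatives. In znf593 the CPM of every mutant sample lay below every wild type sample. The rises were nvl and mdn1, both AAA ATPases, at log2 changes of 0.62 and 0.52. Without mutant a the falls numbered 14 and without mutant c 15, beside 12.8% of all genes in each case. The rises numbered 1 without mutant b, beside 11.7% of all genes.

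In the small subunit processome and assembly list, 10 of 43 were lower (23.3%) and 2 higher (4.65%), with a median of -0.17. The shares among all genes tested were 16.7% and 16.5%. The kinase gene riok1, the nuclease gene nob1 and wdr43 had log2 changes of -0.63, -0.59 and -0.42, and all passed. The falls numbered 6 with library totals, beside 11.9% of all genes. The count of rises was 2 with TMM, 5 with library totals, 1 without wild type a, and 0 in DESeq2 or without any other single library. Of all genes, 22.1% were higher with library totals, 16.2% without wild type a and 11.7% to 14.8% in the settings with 0 rises.

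Nucleolar proteins and the proteins of small nucleolar particles, which modify ribosomal RNA, fell in 6 of 19 cases (31.6%) and rose in 2 (10.5%). Among all genes tested 16.7% fell and 16.5% rose. The rises numbered 4 with library totals (22.1% of all genes) or without wild type a (16.2%). They numbered 1 without wild type b, wild type c, mutant b or mutant c (11.7% to 13.6% of all genes). Among the falls were nop56 (1.47-fold lower), ncl, for nucleolin (1.54-fold lower) and dkc1, for dyskerin (1.44-fold lower). The copies npm1a and npm1b of nucleophosmin passed in opposite directions, at log2 changes of -0.56 and 0.52. Of 18 genes for RNA polymerase I and its factors 5 were lower (27.8%, beside 16.7% of all genes) and 0 higher (16.5% of all genes). The largest change was that of ubtf, for the upstream binding factor of ribosomal DNA, which fell 2.15-fold (edgeR adjusted p 5.17e-06), and ubtfl fell 1.56-fold, while twistnb fell by 0.55 on the log2 scale and lost its call without wild type b (0.069) or mutant a (0.0859). The falls in this list numbered 2 without wild type b or mutant a, 3 without mutant c, and 3 with library totals. In these settings 13.8%, 12.8%, 12.8% and 11.9% of all genes were lower.

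Translation factors were also described by these counts. Of 41 initiation factor genes 8 were lower (19.5%, near the background of 16.7%) and 2 higher (4.88%, beside 16.5% of all genes). The log2 changes of eif3g, eif1b and eif4g2b were -0.67, -0.62 and -0.35 (eif4g2b edgeR adjusted p 0.0515 without mutant c). The falls numbered 3 or 4 without wild type b or any 1 mutant library (12.4% to 13.8% of all genes) and 3 with library totals (11.9%). The rises ran from 0 to 3 over single libraries left out (11.7% to 16.2% of all genes). Of 14 elongation factor genes 4 were lower (28.6%, beside 16.7% of all genes) and 0 higher (16.5% of all genes). The log2 change of eef2l2 was -0.99. Those of the exchange factor subunits eef1db and eef1da were -0.44 and -0.42 (eef1da limma adjusted p 0.0771 with quantile normalization). Elongation factor falls numbered 3 with library totals (11.9% of all genes), 6 in DESeq2 (15.5%) and 3 or 4 over single libraries left out (12.4% to 16.9%). The median log2 change of the elongation factors, -0.25, was close to those of the ribosomal proteins.

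**Figure D5:**
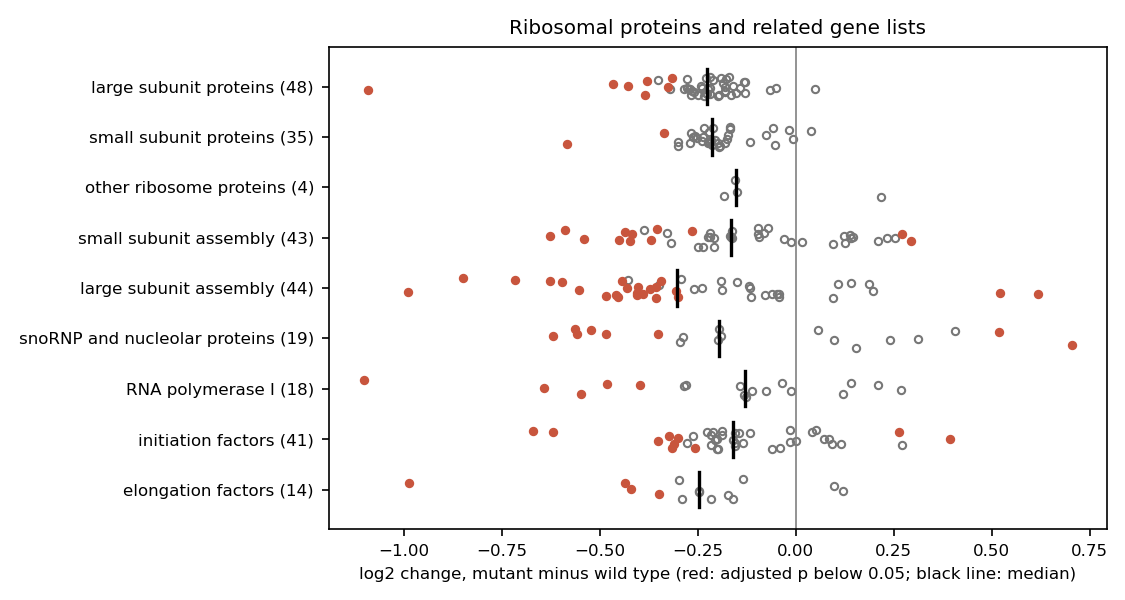
Log2 change (mutant minus wild type, TMM scaling) of each tested gene of the ribosomal protein groups and the 7 related lists, with the number of genes in brackets; red points passed at an adjusted p below 0.05 and the black line is the median. Medians are below 0 in every row on this scale (with quantile normalization those of both subunits, the other ribosomal proteins and the initiation factors are above 0), and the assembly lists spread more widely than the ribosomal proteins.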

How the data were processed

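The authors deposited 1 table with raw read counts and FPKM values per gene and sample, exonic gene sizes, coordinates and symbols, per the file headers. The deposited FPKM equals the count divided by exonic size and by the library's total count, as recomputed. Per the submitters' processing notes, the tools were STAR 2.7.10a, Salmon 1.9.0, fastp 0.23.2 and bcl2fastq 2.20.0.422, with no role stated. Counter, genome build and annotation: not given in the sources used here. Columns were matched to samples by genotype and letter.

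Counts were tested with edgeR 4.0.16 in R 4.3.3 (filterByExpr with minimum count 10 and minimum total 15, TMM, quasi-likelihood test, group as the only term), with Benjamini-Hochberg adjustment over 20032 genes at 0.05. SE was derived from the log2 change and the F statistic, and 95% intervals use the t distribution of the fit. All 83 genes passed the filter. DESeq2 1.42.0 and limma 3.58.1 on log2(FPKM + 1), for genes with mean FPKM of at least 1, were alternatives. The fit was checked on simulated counts with few changed genes, balanced between directions, and the same dispersion for every gene. That check does not cover the choice of scaling.

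The genes and lists were chosen with earlier results of these data known, so lists are described by counts and medians. The 200 symbols of the related lists include alternative spellings. Named were the genes that passed, the 3 lowest and highest changes and the highest and lowest levels per subunit, the stalk, rpsa, rps6, rps14, rps19, rpl5a, rpl5b, rpl11, copy pairs, and the 3 smallest p per related list. Role groups and further names were chosen after values were seen. Depth of 14918069 to 17056923 counts gives abundant genes little counting error, so the spread between samples sets the precision. Values of some genes are not reported here.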

Additional observations from a re-analysis of the deposited data

How the results depend on the processing

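The large subunit count of 7 lower genes became 11 with DESeq2, 3 with limma on log2(FPKM + 1), 3 with limma on log2(FPKM + 0.1), 3 with quantile normalization and 2 with the replicate letter as a block (replicate block), and it ran from 3 to 10 over single libraries left out. The small subunit count of 2 became 0 with library totals, with totals lacking the 50 most abundant genes, with either limma pseudocount and with the replicate block, 1 with quantile normalization, and ran from 0 to 3 without single libraries. Quantile normalization gave 1 higher gene in each subunit, rplp1 in the large subunit (limma adjusted p 0.00079), beside 3038 higher among the 17737 genes tested. The subunit medians in that setting were 0.01 (0.0100) and 0.04 (0.0383). The other alternatives kept the medians below 0, the weakest being -0.11 (large subunit, limma) and -0.10 (small subunit, limma and library totals). Median-of-ratios factors, TMM without the ribosomal protein genes, either count filter and leaving out rps19bp1 and like copies kept the counts of lower genes in each subunit within 1.5 times. Of the 183 related genes, 41 were lower and 5 higher with the replicate block, beside 13.4% and 13.3% of all genes. With totals lacking the 50 most abundant genes 13 were higher, beside 19.7% of all genes. Limma tested 180 of them and gave 36 lower and 15 higher on log2(FPKM + 1), beside 11.7% and 22.7% of all genes. On log2(FPKM + 0.1) it gave 35 and 15, beside 11.5% and 22.3%. Without a low count filter 0 genes of the small subunit assembly list were higher, beside 13.1% of all genes. The labels do not say whether the letters pair the samples. Same-letter deviations from the group means correlated at -0.116, -0.0486 and -0.162, and those of different letters at -0.00318 to 0.148. Such values cannot decide whether samples were handled in matched sets. With the replicate block rpl6 had an adjusted p of 0.0539, and rpl31 and rpl7l1 passed. Of all genes, 2377 were lower and 4424 higher with library totals against 3347 and 3307 with TMM. The share of all genes lower was 15.5% with DESeq2, 13.4% with the replicate block and 13.5% with totals lacking the 50 most abundant genes. It was 16.6% with quantile normalization, and ran from 12.4% to 16.9% over single libraries left out. The cause of these differences was not tested.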

Other observations

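The table also writes some ribosomal protein symbols in capitals, which the symbol rule did not take. RPL41 and RPL37A were looked at after the other values were seen. RPL41, at 3116 ± 458 FPKM in wild type (SD, n = 3), lay above rpl26, the highest of the 83 genes, and had 3044 ± 460 FPKM in mutants. Its log2 change was -0.14 (95% interval -0.47 to 0.18, edgeR adjusted p 0.493). RPL37A had 2266 ± 266 FPKM in wild type and a log2 change of -0.18 (edgeR adjusted p 0.315). By CPM both were highest in sample a within wild type and in sample c within the mutants, the order that most of the 83 genes had.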
